A study of Mus musculus with 30 samples.

Results

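The sites described here are 4189 short stretches of open chromatin in mouse retinal ganglion cells that were listed as footprints of the transcription factor CEBPG and whose start lay more than 4 bp from the start of every footprint listed for its partner ATF4. They are 4189 of the 9293 CEBPG footprints in the deposited table, and the other 5104 began within 4 bp of one of the 6158 ATF4 footprints. A footprint is a dip in transposase cutting over a motif inside an accessible region, where a bound protein shields the DNA. Sites were split from the others by position alone and not by score. All CEBPG footprints in the deposited table, however, scored higher on days 1 and 3 than on day 0. The distance rule cut through an almost empty range. A single site, in a peak annotated to Pdpk1, began 4 bp from an ATF4 footprint (scores 0.0656, 0.175 and 0.126 on days 0, 1 and 3), and the nearest one past the limit, near Gm8143, began at 5 bp (0.0229, 0.0326 and 0.228). Of the sites away from ATF4, 4160 were more than 20 bp from it, and 13 still overlapped an ATF4 footprint, since the rule compares starts only.

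The axons of retinal ganglion cells (RGCs) run through the optic nerve to the brain. The study took them from uninjured mice (called day 0) and from mice 1, 2, 3 or 4 days after crush of that nerve, freed them from the retina with papain and sorted them by fluorescence. ATAC-seq, which reads open chromatin by transposase cutting, covered 6 libraries of day 0, 3 of day 1 and 6 of day 3. RNA-seq covered 3, 3, 2, 3 and 2 libraries of days 0 to 4, and 2 further labelled RNA samples were not analysed here. The strain label was C57BL/6 in every group, apart from 2 RNA libraries of day 0 labelled C57BL/7 and C57BL/8. The labels give no age, no sorting marker and no word on separate animals. The p-values therefore rest on the spread among libraries of a group, and that spread may be only technical. ATAC libraries held 20006724 to 72579102 counts in 151630 peaks and RNA libraries 19024286 to 27561352 counts in genes. The deposited covariate table places day 0 and day 3 ATAC libraries in 2 batches, 3 of each day per batch, and all day 1 libraries in batch 2. A batch term was fitted beside day for this reason. The summed level of 18 RGC identity genes was 13587 to 15105 counts scaled to library size (CPM) on day 0, and that of 9 rod markers 246 to 1122.

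CEBPG is a member of the C/EBP family of basic leucine zipper (bZIP) factors, which bind DNA as dimers. C/EBP dimers read a nearly symmetric site made of facing arms, whereas a heterodimer of a C/EBP factor with ATF4 reads a composite site that joins a C/EBP arm to an ATF arm. The composite site is known from genes of the integrated stress response, the program that ATF4 drives when protein synthesis is checked under stress. CEBPG has little activating function of its own and is known as a partner of ATF4 and of other C/EBP factors. CHOP, encoded by Ddit3, and ATF3 are further bZIP factors that respond to stress and axon injury.

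Sequences could be read for the 122 sites away from ATF4 that lay wholly inside the 300-base RefSeq promoter windows of build GRCm38.p6 (250 bases before to 50 after a start). They are shown because the share of sites with a given motif differed between the widths that the distance rule brings together. Not every site shown holds a motif counted below. Capitals mark the listed footprint, and each sequence is the + strand of the chromosome. These 10-base footprints had the highest day 3 scores in the windows or belong to genes of the lists used here:
Hjurp (chr1:88277565-88277574): ttcaaaagtaTTTACGCAACcgatcctgcc
Jpt1 (chr11:115514448-115514457): acatgccgccATTGGGCAATttaaaaagat
Abhd11 (chr5:135009107-135009116): caaagtgggaATTACGTAATgatgcaggag
Mars1 (chr10:127311777-127311786): atcacgcaccATTACGAAACaggaaatggt
Cebpa (chr7:35119107-35119116): gtcagtgggcGTTGCGCCACgatctctctc
The next are the 12-base footprints of the highest scores in the windows (the second lies in a peak annotated to Glb1l). Both hold TGATGTCA on either strand, and the third in score, Zfand6 (chr7:84690156-84690167), does not and is not printed:
A430005L14Rik (chr4:153957228-153957239): gacgtggcgATGACATCAGACgccgcgcgc
Stk16 (chr1:75210828-75210839): gacgcggacTGATGATGTCATccgggcttc
The 15-base footprints shown are those of the highest scores and of the cytokine gene Il6. The first lies in a promoter peak annotated to Prkd2, in the window of 9330104G04Rik:
9330104G04Rik (chr7:16875065-16875079): caagggcGGGCTTGCTTCATTGtgattat
Coq10b (chr1:55052604-55052618): cgtcacgAAGATTACATAAGTGgcagact
Rbm39 (chr2:156180330-156180344): tcgcgcaATGATTGCGCCACAGatgatca
Il6 (chr5:30012983-30012997): cgacgtcACATTGTGCAATCTTaataagg
For comparison, these CEBPG footprints began within 4 bp of an ATF4 footprint, in promoters of stress response genes. Sites at Aars and Fosb scored higher on day 3 (2.63 and 2.58, against 2.18 and 2.16) and are not printed. The printed ones both hold TGATGCAA on either strand, as do 23 of the 166 such sites read:
Tars (chr15:11399663-11399677): gctaaccAGCTGATGCAACGGGactcctg
Herpud1 (chr8:94386313-94386327): accacggCGGGTTGCATCAGCCcgcaccc

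Footprints away from ATF4 came in 3 widths of nearly equal number, and nearly all of the shortest belonged to them. Of the 4189 sites, 1408 were 10 bases wide, 1489 were 12 and 1283 were 15, with 9 of other widths. Of all 1411 CEBPG footprints of 10 bases, only 3 began within 4 bp of an ATF4 footprint. Near ATF4 the 15-base class led with 3256 sites, followed by 1826 of 12 bases. The letters differed with the width. TTGCGCAA, a symmetric C/EBP site, was in 10 of the 60 10-base footprints read (16.7%), in none of the 31 of 12 bases or the 31 of 15 bases, and in none of the 166 footprints near ATF4. It occurs in 0.183% of all 32851 promoter windows and in 0.00188% of all 10-base stretches in them. The wider form TTGCNNAA, which includes it, was in 33 of 60 footprints of 10 bases, 9 of 31 of 15 bases, and 7 of 166 near ATF4. It is in 10.8% of all windows, and in 0.119% of 10-base and 0.317% of 15-base stretches. TGATGCAA, the joined C/EBP and ATF arms, was in none of the 122 sites away from ATF4 and in 23 of the 166 near it (13.9%), and 0.895% of windows and 0.0248% of 15-base stretches hold it. TGATGTCA was in 13 of the 31 footprints of 12 bases away from ATF4 and in 1 of 166 near it. It is in 3.62% of windows and in 0.0666% of 12-base and 0.107% of 15-base stretches. A footprint is far shorter than a window, so its share compares with that of stretches of its own length. Motifs were searched on both strands, and a match is a description of letters and not evidence of binding. A footprint is listed over a motif, so letters more frequent in footprints than in other stretches follow from the listing and are no finding. How far the motif searched also sets the contrasts between widths was not tested. The contrasts with sites near ATF4, that of TGATGCAA included, bear on the rule itself, since those sites are defined by an ATF4 footprint.

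The widths also differed in which other footprints they shared. DDIT3 footprints overlapped 765 of the 1489 12-base sites (51.4%), 137 of the 1283 15-base sites (10.7%) and 2 of the 1408 10-base sites. ATF3 footprints overlapped 348 (23.4%), 33 and 15 of them. Over all widths, 21.7% of sites away from ATF4 overlapped a DDIT3 footprint against 66.3% of those near it, and 9.57% against 8.19% overlapped an ATF3 footprint. The 10-base sites thus rarely met a footprint of either factor.

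The authors deposited 1 score per site and day and none per library, so the scores carry no replicate error and no test was run on them. The score columns carry the heading nonTarget, as do the authors' own comparisons of these days, and no label explains the word. Every one of the 9293 CEBPG sites scored higher on day 1 and on day 3 than on day 0, so the deposited table holds gained sites only, and the rise itself is no finding. The median score of sites away from ATF4 was 0.104 on day 0 (quartiles 0.0703 and 0.157), 0.172 on day 1 and 0.183 on day 3. Near ATF4 the medians were 0.102, 0.168 and 0.177. Only the order of days 1 and 3 was free: 2430 of the 4189 sites (58.0%) scored higher on day 3 than on day 1, and 58.2% of those near ATF4 did. By width, the medians on days 0, 1 and 3 were 0.114, 0.180 and 0.196 for 10 bases. They were 0.102, 0.172 and 0.180 for 12 bases and 0.0975, 0.166 and 0.177 for 15 bases. The 10-base class was therefore highest on each day, by less than the spread between its quartiles. A score above 1 was reached by 57 sites on day 0, 78 on day 1 and 101 on day 3, and 63 of the 101 were 10 bases wide.

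**Figure D1:**
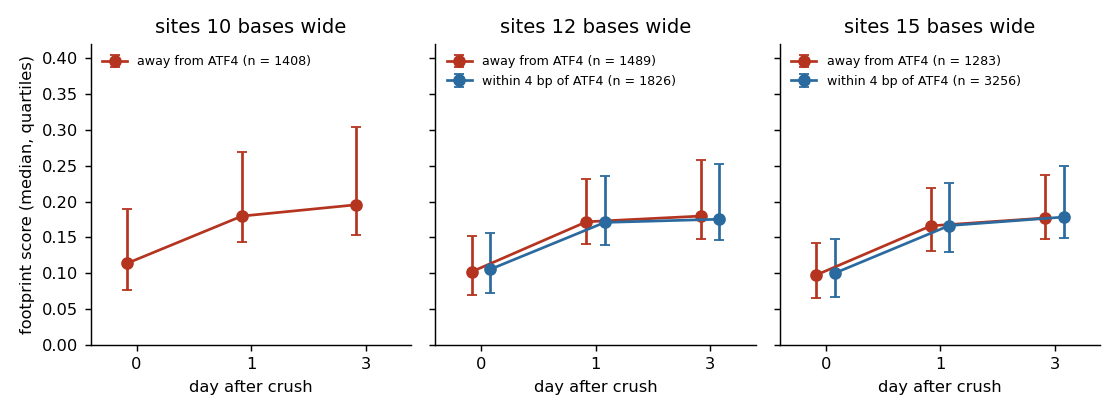
Footprint score (y axis, median with quartiles over sites) on days 0, 1 and 3 after crush (x axis) for CEBPG sites away from ATF4 (red) and within 4 bp of it (blue), by site width. The 2 kinds nearly coincide at 12 and 15 bases, and the 10-base panel has only the sites away from ATF4 because 3 were near it.

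The largest single rises were all at promoters. The site in the promoter of Coq10b, which encodes a coenzyme Q binding protein, went from 2.79 on day 0 to 3.99 on day 1 and 3.21 on day 3. The site in the promoter peak of Prkd2, a protein kinase gene, went from 2.4 to 3.48 and 3.31. Sfi1, of centrin-binding function (chr11:3176470-3176484), had 0.381, 1.53 and 0.827. These 3 led the rises of day 1, and each was lower again on day 3. The rises of day 3 were led by Hjurp, a histone chaperone gene, with 2.34, 2.76 and 3.74. Behind it stood Gnb2, a G protein subunit gene (chr5:137533236-137533247), with 1.60, 1.84 and 2.74. The third was Malat1, a nuclear noncoding RNA (chr19:5795130-5795144), with 0.340, 0.554 and 1.45. In this group the largest value came on day 3.

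The sites lay in strong, wide peaks. All but 26 were fully inside a peak, 3886 peaks held at least 1, and 229 held 2 or more. Timp3, which encodes an inhibitor of metalloproteinases, had the most, with 6 sites in 1 promoter peak and day 3 scores of 0.0664 to 0.353. Peaks of Il3ra, a cytokine receptor gene, and of Dusp1, which encodes a phosphatase of MAP kinases, held 5 and 4. The median peak with a site held 243 counts per library and was 1779.5 bp wide, against 72.9 counts and 754 bp over all peaks, while GC content was alike (medians 48.1% and 48.2%). By the deposited annotation, 1778 sites were in promoter peaks (42.7%), 1150 in introns, 902 intergenic, 154 in exons, 116 in 3′ UTRs, 45 downstream of genes and 18 in 5′ UTRs. Promoters held 41.2% of the peaks with a site and 26% of all peaks. Among 10-base sites 47.1% were in promoter peaks, among 12-base sites 41.8% and among 15-base sites 38.9%. Promoter sites had the highest day 0 scores (median 0.122, against 0.0914 in introns and 0.0961 between genes). Their median ratio of day 3 to day 0 was 1.5, against 1.86 and 1.90. Since the footprints listed are gained sites only, this ratio rests on the rise that was selected and is no finding. Promoter sites were higher on day 3 than on day 1 in 54.6% of cases, intron sites in 60.5% and intergenic sites in 63.3%.

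Accessibility of whole peaks was tested with edgeR's quasi-likelihood test on the peak counts of the single libraries. Since the table of footprints was built from the same libraries and holds only gained sites, a surplus of higher peaks follows in part from that choice and supports nothing. On day 1 (7.84% of all peaks called in either direction), 252 of the 3886 peaks with a site were higher than on day 0 (6.48%; 5.44% of all 151630 peaks) and 153 lower (3.94%; 2.4% of all peaks). Day 1 counts were unstable. With replicate number as a block, which the day 1 and day 0 libraries of batch 2 allow, they were 168 and 49 (3.29% and 0.803% of all peaks). With DESeq2 size factors they were 232 and 383 (4.82% and 5.06% of all peaks), and with a lowess offset per library 131 and 7 (1.35% and 0.445% of all peaks). Leaving out 1 library gave totals between 8, without day 1 replicate 3, and 544, without day 0 replicate 6. From a full total of 405, the count also moved by over 1.5 times without day 1 replicate 2 (20), day 0 replicate 1 (30), day 0 replicate 3 (101), day 1 replicate 1 (138) and day 0 replicate 2 (162). In that order, the higher share was 0.515%, 0.721%, 2.47%, 3.47% and 3.29%, against 0.301%, 0.669%, 1.90%, 2.71% and 3.08% of all peaks. The lower share was 0%, 0.0515%, 0.129%, 0.0772% and 0.875%, against 0.00857%, 0.0534%, 0.152%, 0.133% and 0.677% of all peaks. On day 3 (23.8% of all peaks called), 1268 peaks were higher (32.6%; 16.4% of all peaks) and 171 lower (4.40%; 7.39% of all peaks), with totals of 1230 to 1552 over single libraries left out. Within batch 1 alone 414 were higher and 6 lower (4.32% and 0.411% of all peaks), and within batch 2 alone 1253 and 316 (16.8% and 12.5% of all peaks). Of peaks with sites near ATF4, 31.3% were higher and 4.52% lower on day 3.

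The share of reads in peaks, a measure of ATAC quality, was 32.2% to 49.6% in day 0 libraries, 15.7% to 18.6% on day 1 and 17.3% to 45.6% on day 3, so day 1 lay wholly below day 0. Its part in the peak changes was not tested.

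The calls differed by where the site lay, at promoters, in introns or between genes. Of 1600 promoter peaks with a site, 30 were higher and 135 lower on day 1 (1.88% and 8.44%; 2.52% and 6.9% of all promoter peaks), with a median log2 change of -0.25 that became 0.06 under the lowess offset, where 44 were higher and 4 lower. Of 1112 intron peaks, 105 were higher and 5 lower (9.44% and 0.450%; 6.13% and 0.538% of all intron peaks). Of 859 intergenic peaks, 101 were higher and 7 lower (11.8% and 0.815%; 8.12% and 1.13% of all). On day 3 the higher share was 16.9% at promoters (10.1% of all promoter peaks), 43.9% in introns (18.2% of all) and 47.5% between genes (22.1% of all). The lower shares were 7.00%, 2.52% and 2.33% (8.97%, 6.76% and 6.87% of all). The median log2 change on day 3 was -0.03 at promoters, 0.09 there with the lowess offset, and 0.31 and 0.40 at intron and intergenic peaks. Width made little difference, with 31.1%, 31.4% and 36.2% of peaks with 10-, 12- and 15-base sites higher on day 3.

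**Figure D2:**
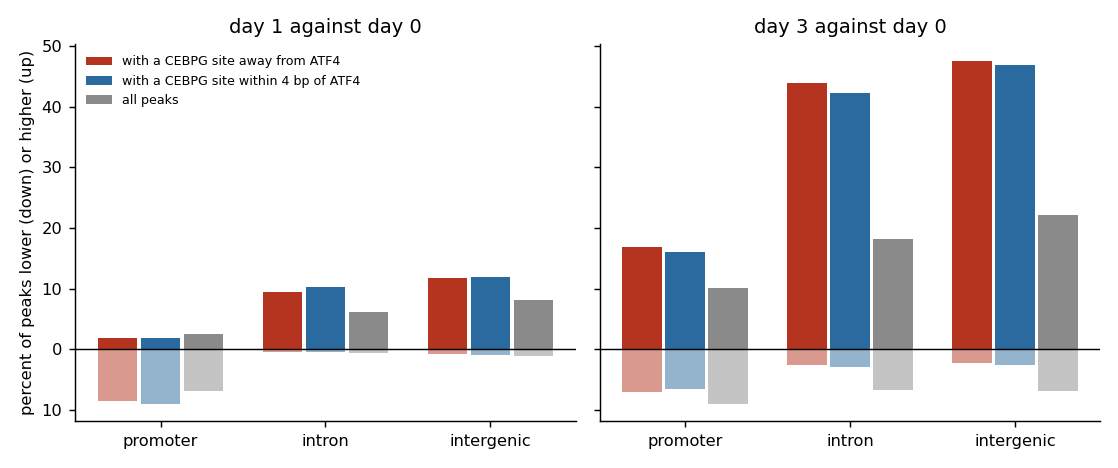
Percent of ATAC peaks called higher (bars up) or lower (bars down, paler) than day 0 by edgeR at an adjusted p under 0.05, for day 1 and day 3, by annotation. Peaks with CEBPG sites away from ATF4 (red) and within 4 bp of it (blue) have like shares in each class, and both exceed all peaks (grey) most in introns and between genes on day 3.

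The peaks with the largest rises were weak before injury, and all but that of Smok2b on day 1 lay outside promoters. An intergenic peak annotated to Gm22448 (chr16:66168323-66168739) held a 10-base site. It stood at 0.196 to 0.700 CPM on day 0 (median 0.294), at 1.17, 1.06 and 1.53 on day 1, and at 1.84 to 4.59 on day 3 (median 2.65). No day 1 or day 3 library overlapped day 0, which the rule for naming peaks required within a batch. The log2 change was 1.61 ± 0.35 (SE) on day 1 (edgeR adjusted p = 0.0143) and 2.93 ± 0.27 on day 3 (edgeR adjusted p = 2.16e-07). An intron peak of Ltbp1, which encodes a binding protein of latent TGF-beta (chr17:75344918-75345741), held a 12-base site. It stood at 0.378 to 0.987 CPM on day 0, 1.38 to 2.02 on day 1 and 3.01 to 5.00 on day 3 (log2 2.53 ± 0.20, edgeR adjusted p = 6.84e-08). These groups did not overlap either, which for day 3 the same rule required within a batch. Intron peaks annotated to Gm13462, 1700129L04Rik and Gm12695 completed the 5 largest rises of day 3, with log2 changes of 2.41, 2.39 and 2.38. On day 1 the largest rise was in an intron peak annotated to Gm16485 (log2 1.72 ± 0.34, edgeR adjusted p = 0.0111), followed by the promoter peak of Smok2b (1.66), the intron peak of Fam189a1 (1.62) and, after that of Gm22448, an intergenic peak annotated to Gm18262 (1.53).

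Falls were smaller, and at the named peaks they ran against the score of the site inside, which was selected to rise. The promoter peak of Usp18, a protease gene of the interferon response (chr6:121243142-121248784), stood at 41.6, 42.9 and 41.4 CPM in the day 0 libraries of batch 2 and at 22.3, 20.8 and 26.8 on day 1. Its log2 change was -0.78 ± 0.14 on day 1 (edgeR adjusted p = 0.00724) and -0.17 on day 3 (adjusted p = 0.266), and the day 0 libraries of batch 1 stood at 18.7 to 24.1. The site in it scored 0.119, 0.129 and 0.169 on days 0, 1 and 3. Promoter peaks of Guca1b (log2 -0.83), of the interferon-inducible GTPase gene Irgm1 (-0.76) and of the ubiquitin ligase gene Rnf141 (-0.76) also fell on day 1, as did a peak annotated to Gm31583 (-0.75). As with Usp18, all 4 were split by batch on day 0. Guca1b stood at 112 to 192 CPM in batch 2 and 62.8 to 93.2 in batch 1, and the last 3 also stood higher in the day 0 libraries of batch 2 (75 to 94.6, 11.3 to 12.1 and 5.39 to 6.27 CPM) than in those of batch 1 (24.2 to 27.6, 2.12 to 2.73 and 0.816 to 1.09). With the replicate block the calls of Guca1b (-0.80, edgeR adjusted p = 0.0521) and Gm31583 (-0.75, adjusted p = 0.0592) were lost. With the lowess offset those of Guca1b (-0.39, edgeR adjusted p = 0.24), Irgm1 (-0.40, 0.259), Rnf141 (-0.72, 0.0513), Gm31583 (-0.86, 0.0586) and, among the rises, Gm18262 (1.37, 0.0541) were lost. Of these 10 peaks named for day 1, 9 lost their call without 1 or another library, the exception being that of Fam189a1. Of the 10 named for day 3 none did. The falls of day 3 were led by an intron peak annotated to Gm44999 (chr7:144134385-144135801; log2 -1.05 ± 0.17, edgeR adjusted p = 7.55e-05), at 8.81 to 12.8 CPM on day 0 and 3.39 to 7.84 on day 3. A peak near Akap11, which encodes an anchor of protein kinase A, went from 7.41 to 12.8 CPM down to 2.82 to 6.60 (log2 -0.93), and the promoter peak of the synaptic gene Stxbp5l fell by 0.84. Peaks of Pold3, a DNA polymerase subunit gene (-0.73), and Mrpl14, a mitochondrial ribosome gene (-0.71), were the others.

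**Figure D3:**
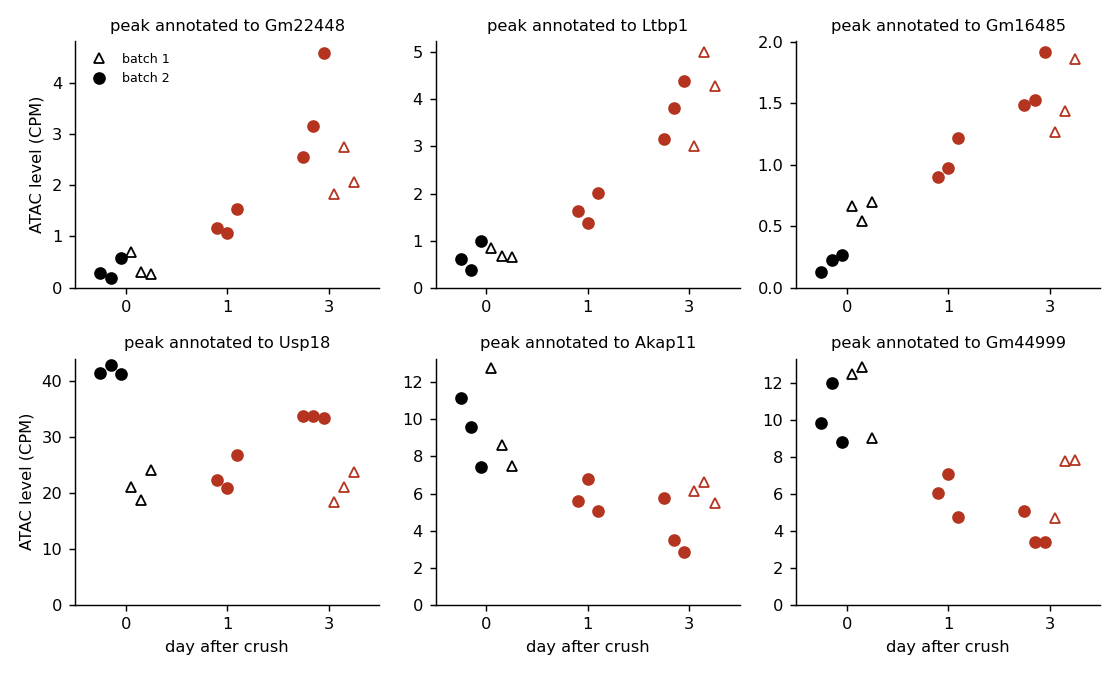
ATAC level in CPM (y axis, from 0) of 6 peaks with CEBPG sites away from ATF4, 1 point per library, by day after crush (x axis); open triangles are batch 1 and filled circles batch 2, black for day 0. The peaks of Gm22448, Ltbp1 and Gm16485 were higher on both days, and that of Usp18 differed between batches on day 0 more than between days within batch 1.

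RNA is a separate assay, on other libraries. Of the 1542 genes with a site in a promoter peak, 1067 were among the genes tested. On day 1 (11.4% of all genes called in either direction), 109 of them rose (10.2%; 5.93% of all 13737 genes) and 64 fell (6.00%; 5.45% of all genes), by edgeR's quasi-likelihood test. On day 3 (40.5% of all genes called), 265 rose (24.8%; 20.4% of all genes) and 214 fell (20.1%; 20.1% of all genes). Measured against the 11840 genes with any promoter peak, the background was 6.14% and 5.61% on day 1 and 20.9% and 21% on day 3. The share above background was thus that of rises, and the falls lay near it. The median log2 change was 0.05 on day 1 and 0.06 on day 3, against 0.01 and 0.03 over all genes. Genes with a promoter site near ATF4 had 11.6% higher and 5.88% lower on day 1, and 28.4% and 19.9% on day 3. The 846 genes with only the sites away from ATF4 had 9.10% higher and 6.15% lower on day 1, and the 221 with both kinds 14.5% and 5.43%. On day 3 the 846 had 25.3% and 19.4%, and the 221 had 23.1% and 22.6%. Without day 1 replicate 1, 114 genes passed on day 1 in place of 173, with 62 higher and 52 lower (5.81% and 4.87%; 3.54% and 3.92% of all genes). With only the libraries of days 0 and 1 in the fit 98 did, with 59 higher and 39 lower (5.60% and 3.70%; 3.05% and 3.05% of all genes). In the authors' deposited table, 5.72% of the promoter genes rose and 2.16% fell on day 1, against 3.1% and 2.16% of all genes. There 10.9% rose and 11.2% fell on day 3, against 8.40% and 11.3%. Fewer cells of a type and less RNA per cell cannot be told apart in such bulk samples.

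Width, position and score of the site were each set against the RNA. On day 1, 11.3%, 9.71% and 12.2% of genes with 10-, 12- and 15-base promoter sites rose, and on day 3 22.6%, 26.7% and 26.7%. Of 791 genes whose sites were only outside promoters, 7.96% rose and 7.84% fell on day 1, and 23.5% rose and 27.3% fell on day 3. Genes with a promoter site of a day 3 score above 1 numbered 72, of which 8 rose and 3 fell on day 1 and 24 rose and 7 fell on day 3 (33.3% and 9.72%). Genes whose promoter sites scored higher on day 3 than on day 1 rose in 138 and fell in 92 of 531 cases on day 3. Those with the opposite order rose in 108 and fell in 105 of 471. Where the promoter peak itself was higher on day 3, 43 of 143 genes rose and 23 fell (30.1% and 16.1%), and where it was lower 10 of 95 rose and 32 fell (10.5% and 33.7%). Over all genes with such promoter peaks, 25.5% rose and 21.2% fell at higher peaks and 15% and 32.8% at lower ones. Day 1 had another order: 0 of 11 rose and 2 fell at higher peaks, and 16 of 120 rose and 7 fell at lower ones (13.3% and 5.83%). Over all genes, 6.67% and 9.84% did at higher peaks and 5.92% and 4.61% at lower ones. These differences were not tested.

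**Figure D4:**
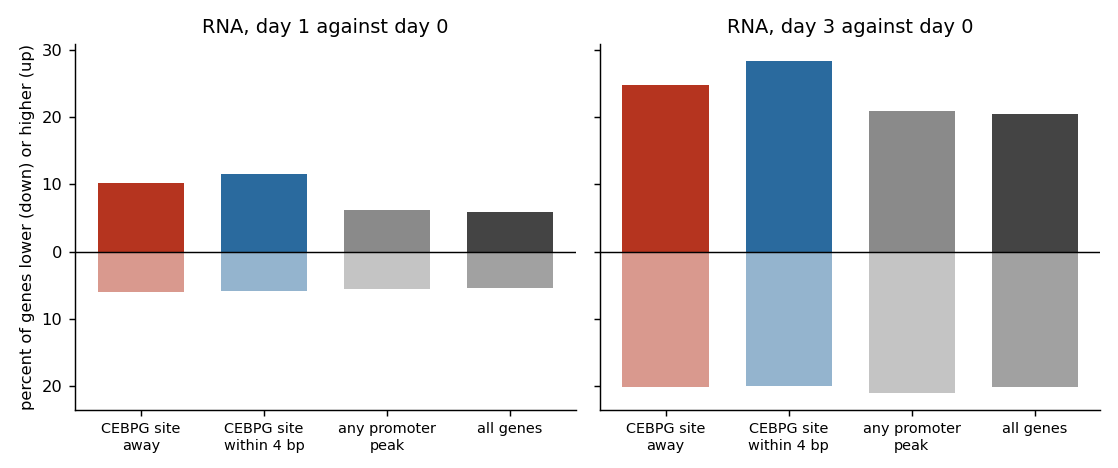
Percent of genes whose RNA was called higher (bars up) or lower (bars down, paler) than day 0 by edgeR at an adjusted p under 0.05, on day 1 and day 3. Genes with a promoter CEBPG site away from ATF4 (red) were higher in 10.2% of cases on day 1 against 5.93% of all genes (dark grey), while the lower shares are level.

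Among the genes described next, Dusp16, Arid5a, Vim, Igfbp5, Tppp3, Per2, Cd83, C3, Klf6, Fos, Fosb, Jund and Herpud1 have promoter sites of both kinds. The largest rises of day 1 were those of Dusp16 and Arid5a. Dusp16, a gene of the phosphatases that switch off JNK, has a 12-base site in its promoter peak (chr6:134760892-134760903; scores 0.0588, 0.116 and 0.150). Its RNA was 5.79, 4.62 and 6.73 CPM on day 0, 106, 101 and 95.5 on day 1, 104 and 105 on day 2, 63.0, 72.1 and 77.8 on day 3, and 60.7 and 50.6 on day 4. All libraries after crush were far above day 0, with a peak on days 1 and 2 (log2 4.14 ± 0.14 on day 1, edgeR adjusted p = 1.3e-11). Arid5a, an RNA-binding protein gene of inflammatory signalling, has a 10-base site of high score (chr1:36308226-36308235; 0.490, 0.866 and 0.864). It went from 1.62, 0.734 and 1.87 CPM to 20.1, 22.0 and 22.6 on day 1 and 66.1, 71.3 and 64.5 on day 3 (47.6-fold, log2 5.57 ± 0.21, edgeR adjusted p = 4.78e-12). Its highest values, 77.0 and 78.8, were on day 2. Tmod1, which encodes a cap of actin filaments, has a 12-base site whose score peaked on day 1 (0.0531, 0.233 and 0.0623). Its RNA rose 3.96-fold on day 1 and 19.0-fold on day 3, from 1.17 to 1.56 CPM up to 22.4 to 28.6. The rule for naming genes by their change required no overlap with day 0. Snx33, of membrane traffic, rose from 0.650, 0 and 0.0778 CPM to 11.1, 16.5 and 13.6 on day 3 (61.6-fold). That fold was 292 without day 0 replicate 1 and 40.1 without replicate 2, and its day 1 fold of 5.34 was 25.2 and 3.46 without them. The day 1 call (edgeR adjusted p = 0.0265) was lost when any of day 0 replicates 2 and 3 or day 1 replicates 1 and 3 was left out. Col18a1, a collagen gene, rose 12.2-fold on day 3, or 19.6-fold without day 0 replicate 1.

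Lgals3, Vim and Ifit2 rose too, with libraries that stood apart. Lgals3, which encodes galectin-3, went from 0.650, 1.47 and 1.13 CPM to 13.9, 3.40 and 4.62 on day 1 and 16.3, 16.0 and 16.6 on day 3 (log2 2.73 ± 0.45 and 3.89 ± 0.46). Vim, which encodes the filament protein vimentin, went from 4.66, 2.68 and 5.02 to 51.3, 13.7 and 13.1 and then 25.8, 22.0 and 22.8. Day 1 replicate 1 was the highest in both, and without it their day 1 folds of 6.63 and 6.31 were 3.57 and 3.2. Ifit2, an interferon-induced gene, was at 28.9, 33.1 and 169 CPM on day 0 and at 506, 407 and 184 on day 1 (4.72-fold, edgeR adjusted p = 0.0179). Without day 0 replicate 3, the high one, the fold was 11.7, and the call was lost on leaving out day 0 replicate 1, day 0 replicate 2 or day 1 replicate 1.

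The largest fall of day 1 among the named genes that passed was that of Igfbp5, and Tppp3 fell on both days. Tppp3, which encodes a tubulin-binding protein, has 2 sites in promoter peaks, the first of 15 bases (chr8:105467250-105467264; scores 0.206, 0.247 and 0.588). Its RNA was 445, 444 and 481 CPM on day 0, 221, 266 and 217 on day 1 and 39.6, 38.8 and 42.9 on day 3 (log2 -0.96 ± 0.09 and -3.50 ± 0.10, edgeR adjusted p = 3.6e-06 and 2.05e-13). The groups were far apart on both days. Igfbp5, which encodes a binding protein of insulin-like growth factors, went from 59.3, 54.7 and 49.9 CPM to 23.2, 29.4 and 28.7 on day 1 and 12.6, 9.12 and 6.76 on day 3. No library after crush reached the lowest of day 0, which for day 1 the rule for naming genes required. On day 3 the axonemal dynein gene Dnah6 fell by 3.98 on the log2 scale, while Kctd19, known from meiosis, changed by -2.94 and the noncoding gene A930012L18Rik by -2.81. The clock gene Per2 (log2 -0.80), the spermidine synthase gene Srm (-0.78) and the xylosyltransferase gene Xxylt1 (-0.70) fell on day 1. The day 1 calls of these 3 were each lost in 3 of the 6 fits that left out 1 library of days 0 or 1. Per2 has a 10-base site with scores of 0.975, 1.17 and 1.31.

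**Figure D5:**
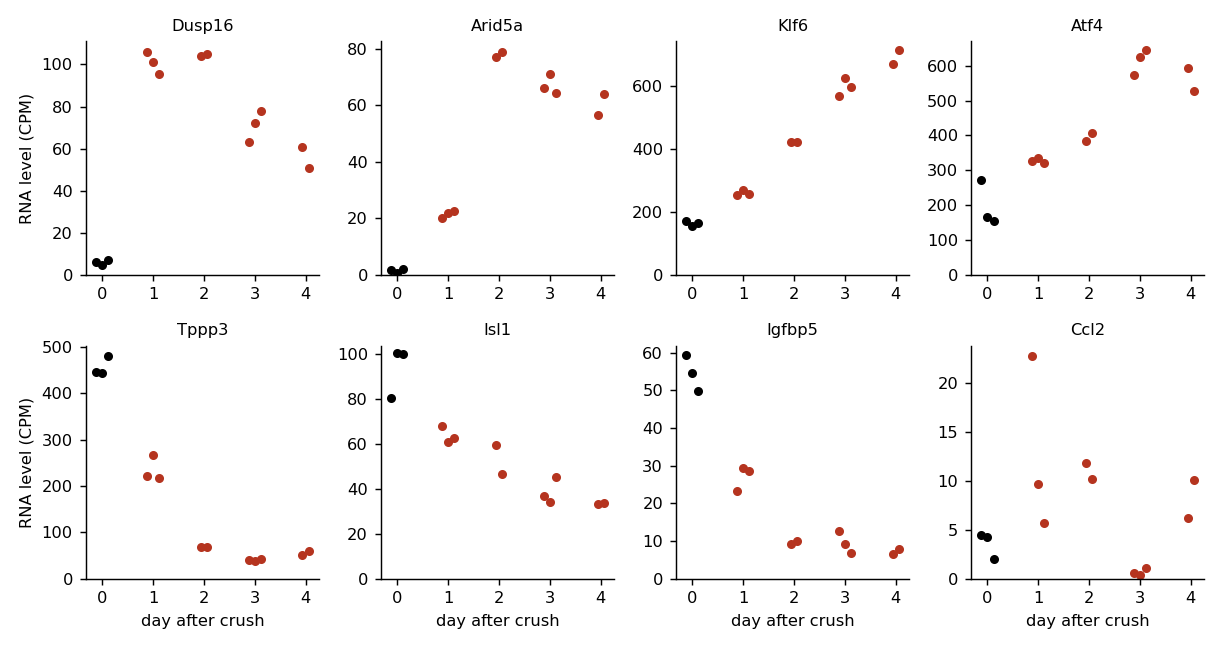
RNA level in CPM (y axis, from 0) of 8 genes with a promoter CEBPG site away from ATF4, 1 point per library, on days 0 to 4 after crush (x axis). Dusp16, Arid5a, Klf6 and Atf4 lie above day 0 on each later day, Tppp3, Isl1 and Igfbp5 below it, and Ccl2 is higher on day 1 and lower on day 3.

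H2-Aa, Cd83, Ccl2 and C3 were lower on day 3 than on day 0, while Socs3 and Ifit2 did not pass on that day. H2-Aa, of antigen presentation, was at 17.9, 5.35 and 28.5 CPM on day 0, 72.8, 13 and 38.2 on day 1 and 2.39, 2.66 and 3.09 on day 3 (log2 -2.67 ± 0.57, edgeR adjusted p = 0.0011). Cd83, a surface marker of activated immune cells, went from 43.2, 36.5 and 35.6 to 5.41, 6.94 and 6.81 on day 3 (log2 -2.59 ± 0.16). The chemokine gene Ccl2 was at 4.49, 4.32 and 2.02 on day 0, 22.8, 9.68 and 5.69 on day 1 and 0.587, 0.349 and 1.09 on day 3. Ccl2 was above day 0 in all day 1 libraries and below it in all day 3 libraries (log2 1.82 ± 0.47 and -2.40 ± 0.53), but the day 1 call was lost without day 1 replicate 1 (2.11-fold in place of 3.53-fold, edgeR adjusted p = 0.147) or day 0 replicate 3 (2.85-fold, adjusted p = 0.0559). C3, the complement gene, fell by 2.36 on day 3, and its day 1 value was 1.27 (adjusted p = 0.132). Of 9 markers of microglia and macrophages 4 rose on day 1 (5.93% of all genes) and none passed on day 3. Their summed level was 71.4 to 113 CPM on day 0, 110 to 429 on day 1, 205 to 221 on day 2, 66.9 to 82.0 on day 3 and 172 to 263 on day 4. Their part in these genes was not tested.

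Of the 48 measured genes of the integrated stress response 20 have a promoter CEBPG site near ATF4 (41.7%; 9.41% of all genes) and 2 have one away from it (4.17%; 7.77% of all genes). On day 1, 38 of the 48 rose (5.93% of all genes) and none fell. On day 3, 46 rose (20.4% of all genes) and none fell (median log2 0.97 on day 1 and 1.94 on day 3). The 2 with a site away from ATF4 were Atf4 itself and Herpud1, whose product helps clear misfolded proteins from the endoplasmic reticulum. Atf4, with 2 promoter sites, the first of 10 bases (chr15:80256095-80256104; scores 0.804, 0.995 and 1.22), was at 271, 165 and 153 CPM on day 0, 327, 334 and 321 on day 1 and 573, 626 and 646 on day 3. It was above day 0 in every library after crush (1.67-fold and 3.13-fold). Herpud1 has both kinds of site, the one shown above and one of 15 bases away from ATF4 (0.0654, 0.151 and 0.111), and rose 2.20-fold and 3.31-fold. Ddit4 and Slc7a1 have such sites outside promoters only. Mars1, the methionyl-tRNA synthetase gene whose site is shown above (1.72, 1.78 and 1.94), was not found under that symbol among the genes measured. Its peak carries the symbol Mars, so the counts of 48 and 2 may miss it.

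Of 7 acute phase and cytokine genes known as C/EBP targets that were measured, 3 have a promoter site away from ATF4, namely C3, Ccl2 and Socs3. That is 42.9%, against 7.77% of all genes. C3 also has one near ATF4 (14.3% of the 7, against 9.41% of all genes). Of the 7, 4 rose and none fell on day 1 (5.93% and 5.45% of all genes). On day 3, 2 rose and 2 fell (20.4% and 20.1% of all genes). Socs3, which encodes an inhibitor of cytokine signalling, went from 2.76, 1.73 and 2.14 CPM to 9.28, 6.19 and 4.76 on day 1 (log2 1.61 ± 0.34, edgeR adjusted p = 0.0056) and was at 4.03, 2.84 and 2.21 on day 3 (0.46, adjusted p = 0.31). 

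Among axon injury genes 16 of 26 rose (5.93% of all genes) and none fell on day 1. On day 3, 22 rose and 2 fell (20.4% and 20.1% of all genes). Sites away from ATF4 were at the promoters of 2 of the 26 (7.69%; 7.77% of all genes), Klf6 and Lgals3, and elsewhere near Cd44, Gal and Mmp12. Klf6, a transcription factor gene of axon regeneration with 3 promoter sites, rose from 169, 154 and 166 CPM to 255, 271 and 256 on day 1 and 570, 626 and 598 on day 3 (log2 0.68 ± 0.07 and 1.88 ± 0.07, edgeR adjusted p = 8.11e-06 and 4.78e-12). Its first site, of 10 bases (chr13:5870495-5870504), scored 0.247, 0.586 and 0.534. Of 18 RGC identity genes 12 fell on day 1 (5.45% of all genes) and 13 on day 3 (20.1% of all genes), with 1 rise on day 3. Isl1, a transcription factor gene of RGC development and the one with a promoter site here, went from 80.5, 100 and 99.9 CPM to 68.1, 60.6 and 62.7 and then 36.7, 34.3 and 45.2. None of its day 1 or day 3 libraries reached day 0. By the peak annotation, no glutathione and redox gene of 16 measured had a promoter site away from ATF4 (7.77% of all genes do). Near ATF4, 4 had one (9.41% of all genes do). Gpx1, of the same list, has a 10-base site away from ATF4 in its promoter window, in a peak annotated to Gm37401. That site (chr9:108338910-108338919) scored 0.286, 0.356 and 0.355.

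The bZIP genes themselves carry such sites. Of the 5 C/EBP genes measured, Cebpa and Cebpd have a promoter site away from ATF4 (40%, against 7.77% of all genes). Cebpb and Cebpg have one near it (40%, against 9.41% of all genes). Cebpa has a high-scoring 10-base site (0.579, 1.07 and 1.45), yet its RNA stayed at 0.311 to 5.45 CPM in all libraries, with log2 changes of 1.28 (edgeR adjusted p = 0.31) and -0.09 (0.941). Cebpd, at 0.670 to 2.88 CPM, did not pass either (log2 -0.41 and 0.84). Cebpg rose from 96.1, 85.0 and 77.8 CPM to 175, 189 and 169 on day 1 and 231, 201 and 180 on day 3 (log2 1.04 ± 0.10 and 1.24 ± 0.10). Cebpb was at 0.920 to 1.17 CPM on day 0 and 3.48 to 5.59 on day 3 (log2 2.20 ± 0.41, edgeR adjusted p = 0.00032). Ddit3 rose 5.79-fold and 11.1-fold, and Atf3 14.3-fold and 141-fold. Of 11 ATF and AP-1 genes measured 6 rose on each day (5.93% and 20.4% of all genes). On day 1, 0 fell, and on day 3, 2 did (5.45% and 20.1% of all genes). Atf4, Fos, Fosb and Jund have promoter sites away from ATF4 (36.4%, against 7.77% of all genes). Jund rose 1.65-fold and 1.72-fold. Fos, at 48.0, 51.6 and 98.5 CPM on day 0, fell to 41.1, 24.1 and 28.1 on day 3 (log2 -1.09 ± 0.25, edgeR adjusted p = 0.00182). Fosb, whose promoter peaks hold 3 sites, the first with scores of 0.686, 1.36 and 1.66, had a day 3 value of -0.95 (adjusted p = 0.0517). The PAR bZIP genes are relatives that read similar letters. The 4 measured had no promoter site away from ATF4 (7.77% of all genes have one), and Nfil3 and Hlf have one near it. Of the 4, 3 fell and 1 rose on day 3 (20.1% and 20.4% of all genes).

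The chromVAR z-score gives the accessibility of all peaks with a CEBPG motif in each library, so it covers sites near ATF4 and away from it alike. It was -4.51 ± 2.36 on day 0 (SD, n = 6), -5.30 ± 3.88 on day 1 (SD, n = 3) and 6.79 ± 1.26 on day 3 (SD, n = 6). The day 3 libraries, at 5.57 to 9.19, lay above all day 0 libraries, at -8.29 to -2.08, and the difference was 11.3 ± 1.30 (SE; limma adjusted p = 5.23e-06; 25.9% of the 1312 motifs were called higher and 58.2% lower). It held in both batches, with day 3 means of 6.22 and 7.35 against day 0 means of -5.51 and -3.51. Day 1, at -5.39, -9.14 and -1.37, overlapped day 0 (difference -1.57 ± 1.72, limma adjusted p = 0.401; 8% of motifs were called higher and 75.7% lower). With each library centred on its median motif, the day 1 difference was 7.59 (limma adjusted p = 0.00317), so its sign depended on the centring. Motifs of related factors rose on day 3 too. Their differences from day 0 were 14.5, 12.8 and 10.6 for Cebpb, 13.6 and 9.66 for Cebpd, 9.14 for Atf4 and 7.69 for Ddit3. The day 3 rise was thus not particular to the CEBPG motif.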

How the data were processed

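ATAC-seq and RNA-seq of sorted RGCs were analysed from the deposited tables. Per the submitters' processing notes, the ATAC tools were Bowtie2, MACS2, featureCounts, ChIPseeker, DESeq2, Trim Galore, bedtools, Picard and SAMtools (builds GRCm38 and mm10), and the RNA tools STAR, HTSeq, Picard and edgeR (mm10). The footprint caller was not given in the labels. The deposited footprint and chromVAR tables hold a score per site and day (none per library) or per motif and library. The deposited counts per peak and per gene were tested as they stand. The authors' comparison tables give log2 fold changes and adjusted p-values, and the deposited covariate and annotation tables give reads in peaks and GC content as a fraction. The number of per-sample columns left unmapped was 0 in the tables used.

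Counts were fitted with edgeR 4.0.16 in R 4.3.3 (TMM, filterByExpr, quasi-likelihood F test, two-sided, Benjamini-Hochberg over all peaks or genes, threshold 0.05), with day and batch for ATAC and day for RNA, over all 15 and 13 libraries. Motif scores were fitted with limma 3.58.1. Each SE was taken as the size of the log2 change over the root of F. The fits were also run on simulated data, and the outcome is not reported here. Alternatives were DESeq2 1.42.0, its size factors, a lowess offset (span 0.3), other filters, no batch term, single batches, fewer groups, replicate blocks, leaving out each library, and other rules for members. Replicate numbers paired the day 1 and day 0 ATAC libraries by the check (correlations of deviations 0.12, 0.118 and 0.223) but not day 3 (-0.207 to 0.191) or RNA (-0.127 to 0.016).

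Named were, per day, the 3 sites with the largest rise of score (none fell), the 5 largest rises and falls among called peaks (mean count 20 or more, libraries of a batch not overlapping), and the 6 largest rises and falls among called promoter genes (mean CPM 5 or more, libraries not overlapping). Up to 4 genes per list and 6 bZIP genes were added. Peaks with several sites were chosen after their values were seen. There were 8 gene lists and 8 marker lists. The members and lists were chosen with earlier results of these data known. Promoter sequences are RefSeq's. Not every gene and sequence that the rules pick is reported here.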

Additional observations from a re-analysis of the deposited data

Results flagged for a closer look

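Of 40 groups of 6 libraries examined for a sample far from the others, 2 had one, and chance alone marks about 5% of such groups. The peak at Guca1b had a day 3 library, replicate 1, at 79.4 CPM with the others at 55.5 to 64.1, a gap of 0.64 of the range. The Cebpg motif z-score had a day 3 library, again replicate 1, at 9.19 with the others at 5.57 to 6.90, a gap of 0.634 of the range.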

How the results depend on the processing

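Counts of peaks with a site that passed on day 1 (405 in all) were the least stable. They were 877 with DESeq2, 615 with its size factors, 1644 in batch 2 alone, 138 with the lowess offset, 0 with no batch term, 217 with the replicate block, and 8 to 544 with 1 library left out. With DESeq2, 310 were higher and 567 lower (7.98% and 14.6%; 6.26% and 7.23% of all peaks). In batch 2 alone, 857 were higher and 787 lower (22.1% and 20.3%; 14.6% and 12.4% of all peaks). At an unadjusted p under 0.05 the main edgeR fit had 769 higher and 804 lower of the 3886 peaks with a site. Over all 151630 peaks, 25835 were higher and 17120 lower by that measure. On day 3 the calls (1439) were 420 in batch 1 alone and 601 with no batch term, and within 1.5 times under all other alternatives, the replicate block included (1368), with 1230 to 1552 over single libraries left out. With no batch term, 565 were higher and 36 lower (14.5% and 0.926%; 7.16% and 2.38% of all peaks). For RNA the day 1 count (173) was 98 with only the 2 days compared, 298 with genes of any annotated peak (16.0% of 1858; 11.4% of all genes), 172 with the replicate block and 114 to 171 over libraries. The day 3 count (479) was 881 with genes of any annotated peak (47.4% of 1858; 40.5% of all genes), 473 with the replicate block and 421 to 441 over libraries. The day 1 motif difference (-1.57) was 7.59 after centring and -3.54 to 0.348 over libraries, being above 0 without day 1 replicate 2 (0.348). On day 3 it was 10.6 to 12 over libraries. The median day 3 score (0.183) was 0.191 at promoter peaks and 0.178 elsewhere. For single peaks and genes, 1120 values kept their side of the threshold, 85 lost a call and 15 gained one, and none reversed. The cause was not tested in any of these cases. Scores have no replicates, and day 1 ATAC has 3 libraries of 1 batch with few reads in peaks.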
